A study of Mus musculus with 477 samples.

Results

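Genes that p53 switches on were read in single cells of the mouse mammary gland and of mammary tumors that lacked *Brca1*. The 10 genes described here were *Cdkn1a*, *Ccng1*, *Mdm2*, *Trp53inp1*, *Perp*, *Tnfrsf10b*, *Bax*, *Pmaip1*, *Sesn2* and *Zmat3*, all of which had a row among the 21004 genes of the count table. They were chosen by name as known p53 targets and are described gene by gene, because a sum over them follows 1 gene: *Trp53inp1* held 54.9% of their summed level over the mice. p53, the protein of *Trp53*, is a transcription factor that is kept scarce in unstressed cells by the ubiquitin ligase Mdm2. When DNA is damaged, p53 is stabilised, binds paired half-sites near its target genes and raises genes that halt the cell cycle, start apoptosis or limit stress, together with *Mdm2* itself, which closes a feedback loop. In the mammary gland, loss of the DNA repair protein Brca1 is known to activate this response, and *Trp53* is often lost in tumors that arise without *Brca1*.

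The data were 477 cells of 11 female mice, on a mixed C57BL/6 and 129/Sv background, captured on Fluidigm C1 chips, which hold each cell in its own chamber and yield full-length cDNA. Luminal cells came from 7 mice aged 3 to 4 months, 3 of them virgin (v) and 4 at day 12.5 of pregnancy (p), and tumor cells from 4 mice with tumors of about 1 cm. All mice carried MMTV-Cre, a recombinase driven by a promoter active in mammary epithelium. Br mice were *Brca1* fl/fl with wild type *Trp53* (vBrL, pBrL, BrT1, BrT2), Br53 mice were *Brca1* fl/fl and *Trp53* fl/+ (vBr53L, pBr53L, Br53T1, Br53T2), and 53 mice were *Trp53* fl/+ with wild type *Brca1* (v53L, p53L), L standing for luminal and T for tumor. The luminal mice also carried the ROSA mT/mG reporter, and their cells were sorted as live CD24Hi CD29Lo cells that had turned on membrane GFP after recombination, whereas tumor cells were sorted as live CD24+ cells. These *Trp53* genotypes are those of the study's methods. Its description of flow cytometry on luminal mice gives *Trp53* fl/fl instead, so how many alleles were floxed in the luminal mutant mice is uncertain, and loss of an intact allele was not examined here. No mouse was wild type for both genes. The pBrL group held 2 mice, pBrL-1 and pBrL-2, and each of the other 9 groups held 1, so every comparison below treats the mouse as the replicate and its p-values measure the spread between mice.

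The cells of a mouse, between 30 and 71 of them, were summed, and a cell gave between 170209 and 3550564 reads. Levels are given as counts per M reads (CPM), the summed reads of a gene over all reads of the mouse. In such sums, fewer cells that express a gene and less RNA per cell cannot be told apart, so shares of cells stand beside the levels. The prefixes of the cell labels, whose meaning the labels do not give, split the cells into 8 sets, which are read here as library batches. *Trp53* mutant and wild type luminal mice shared no batch, so genotype and batch cannot be told apart in luminal cells, and only batch SC6 held a tumor (Br53T2) with luminal cells (pBrL-2). The 6 luminal markers (*Krt8*, *Krt18*, *Krt19*, *Epcam*, *Cdh1*, *Cd24a*) summed to between 8660 and 13700 CPM in luminal mice and between 846 and 6578 CPM in tumors, lowest in BrT1. BrT1 instead held 4955 CPM of 6 fibroblast markers, against at most 712 CPM elsewhere. *Dcn* alone made up 4356 and 711 CPM of these sums, and *Lum* had no read in any mouse. Br53T2 held 5464 CPM of 7 basal markers, against at most 471 CPM elsewhere. Endothelial and immune markers reached at most 9.62 and 253 CPM.

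The targeted genes came first. *Trp53* stood at 92.5 CPM in vBrL, 413 and 515 in the pBrL mice, 164 in vBr53L, 243 in pBr53L, 93.4 in v53L and 177 in p53L. In the tumors BrT1, BrT2, Br53T1 and Br53T2 it stood at 5.05, 49.8, 67.2 and 140.4 CPM. The lowest level was thus in a tumor with wild type *Trp53*, where 54.9% of the *Trp53* reads came from 1 cell, and over all states the mutant mice did not lie below the wild type mice. Among pregnant mice, both mutant mice did lie below both wild type mice. The luminal genotype comparison gave *Trp53* a log2 difference of -0.42 ± 0.40, which did not pass the edgeR test and lay between -0.99 and -0.15 over all settings. Counts over a whole gene do not separate the deleted allele from the intact one, so they do not check the genotype. *Brca1* ranged from 1.7 to 57.2 CPM, with the highest level in BrT1, and it likewise did not separate *Brca1* fl/fl mice from the 53 mice (6.99 and 5.21 CPM).

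Sequences upstream of the start sites show where a p53 half-site can be read by its letters. Promoter windows of 300 bases from RefSeq, on GRCm38.p6, were found for 5 of the 10 genes (*Cdkn1a*, *Mdm2*, *Bax*, *Ccng1* and *Sesn2*), and *Trp53inp1*, *Perp*, *Tnfrsf10b*, *Zmat3* and *Pmaip1* had none in the table. A p53 half-site was searched on both strands as the 10-base consensus, and 8.36% of 32851 windows, or 9.55% of 27025 gene symbols with a window, held 1 or more. Matches stood in 4 of the 5 genes with a window, *Cdkn1a*, *Mdm2*, *Bax* and *Ccng1*, and *Sesn2* held none. They are printed 5′ to 3′ on the strand of the gene, all upstream of the start, with each half-site in capitals.
*Cdkn1a*, chr17:29090881-29090962, plus strand: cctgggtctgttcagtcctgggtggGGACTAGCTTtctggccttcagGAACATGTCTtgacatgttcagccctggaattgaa
*Mdm2*, chr10:117710910-117710969, minus strand: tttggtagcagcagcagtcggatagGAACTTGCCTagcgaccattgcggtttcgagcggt
*Bax*, chr7:45467065-45467124, minus strand: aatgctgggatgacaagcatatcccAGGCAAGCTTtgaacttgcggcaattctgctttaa
*Ccng1*, chr11:40755437-40755496, minus strand: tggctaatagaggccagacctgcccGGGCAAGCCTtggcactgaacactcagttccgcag
Of the 2 *Cdkn1a* windows, the upstream 1 held 2 half-sites and the other none. The pair began 73 bases before the start and ended 42 bases before it. In *Mdm2*, *Bax* and *Ccng1* the single match began 186, 201 and 185 bases before the start. These are letter matches in 1 window per start and say nothing of binding.

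**Figure D1:**
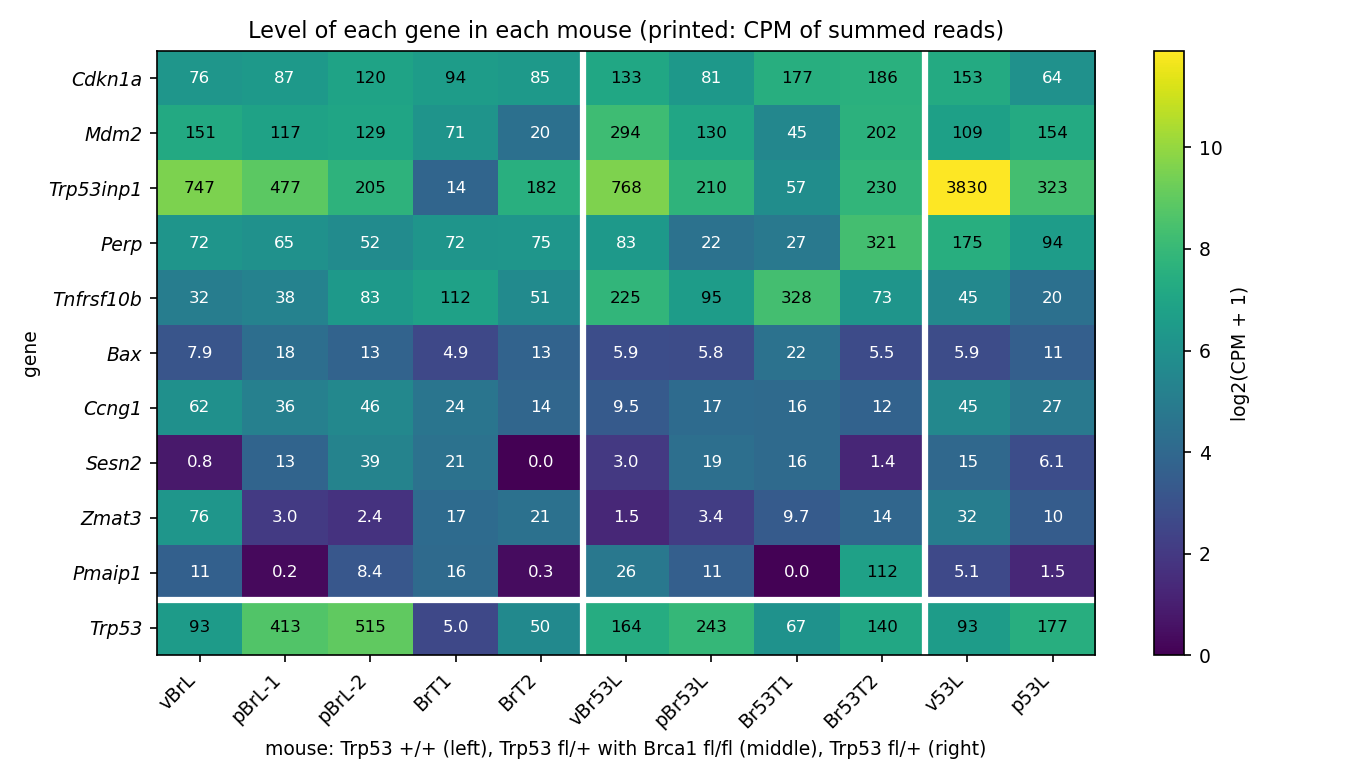
Heat map of the CPM of the 10 p53 target genes and of *Trp53* (rows) in the 11 mice (columns). The colour is log2(CPM + 1), the printed number is CPM, and white lines separate *Trp53* wild type, Br53 and 53 mice. *Trp53inp1* in v53L is the highest value, and no gene separates the *Trp53* wild type columns from the mutant columns.

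Levels ranged widely between genes. Per kilobase of exon, the median level over the mice was highest for *Perp* (37.1 CPM per kb) and *Trp53inp1* (35.6), then *Cdkn1a* (26.6), *Mdm2* (25.3) and *Tnfrsf10b* (13.4). It was 6.74 CPM per kb for *Ccng1*, 5.03 for *Bax*, 3.86 for *Sesn2*, 3.06 for *Pmaip1* and 0.876 for *Zmat3*. The first 5 genes were read in between 47.8% and 69.2% of all cells after each cell was thinned to 100000 reads, whereas *Pmaip1*, *Sesn2* and *Zmat3* were read in 10.7%, 9.64% and 14.9%. After this thinning, a cell held reads of a median of 4 of the 10 genes (range 0 to 9), and 5 of 477 cells held none, 4 of them from pBr53L. Few cells carried much of the signal of the sparse genes: the cell with the most reads gave, as the median over mice, 75.4% of the *Pmaip1* reads, 58.5% of *Sesn2* and 47.1% of *Zmat3*, but 14.04% of *Cdkn1a* and 11.3% of *Tnfrsf10b*.

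*Cdkn1a* encodes p21, the inhibitor of cyclin-dependent kinases through which p53 halts the cell cycle (GRCm38, chr17:29090976-29100727, plus strand). It was the steadiest of the 10 genes, with a 2.92-fold range over the 11 mice. In *Trp53* wild type mice it stood at 75.6 CPM in vBrL, 86.98 and 120.4 in the pBrL mice, 94.5 in BrT1 and 85.1 in BrT2. In mutant mice it stood at 133 in vBr53L, 81.03 in pBr53L, 177 in Br53T1, 186 in Br53T2, 153 in v53L and 63.7 in p53L. The 5 wild type mice thus lay inside the range of the 6 mutant mice, which held both the highest and the lowest level. Between 54.1% and 86.7% of the cells of every mouse had a read after thinning. Cells with at least 10 CPM of the proliferation genes *Mki67*, *Top2a* and *Cdk1* together had a lower median of *Cdkn1a* than the other cells in 6 of 9 mice with at least 5 cells of each kind, and a higher one in 3. In BrT2 the medians were 5.84 CPM over 13 cells with these genes and 50.6 CPM over 24 without, and in vBrL 131 CPM over 9 cells and 16.2 CPM over 26. This split was chosen after values had been seen and is a description.

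*Ccng1* encodes cyclin G1, which acts on Mdm2 through the phosphatase PP2A (chr11:40748552-40755311, minus strand). It stood at 62.1 CPM in vBrL, 35.9 and 45.6 in the pBrL mice, 23.7 in BrT1 and 14.3 in BrT2. In mutant mice it stood at 9.48 in vBr53L, 17.0 in pBr53L, 16.1 in Br53T1, 12.3 in Br53T2, 45.4 in v53L and 27.01 in p53L. The 4 Br53 mice were all low, and BrT2 lay among them. One cell gave 65.9% of the reads in vBrL and 79.9% in BrT2, and without it these mice stood at 21.98 and 2.95 CPM.

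*Mdm2* encodes the ligase that marks p53 for degradation (chr10:117688875-117710758, minus strand). It lay between 109 and 154 CPM in 6 of the 7 luminal mice and at 294 CPM in vBr53L. Tumors spread more widely, with 71.5 and 19.8 CPM in BrT1 and BrT2 and 44.8 and 202 CPM in Br53T1 and Br53T2, so 3 of the 4 lay below every luminal mouse. The 2 pBrL mice differed by only 1.10-fold. In vBr53L the cell with the most reads gave 28.8% of them, and the other cells stood at 215 CPM, still above every other mouse. The level nevertheless rests on few cells, since the 3 cells with the most reads gave 60.7%. The median vBr53L cell held 8.46 CPM, against medians of 0 to 39.3 CPM in the other luminal mice, and 48.7% of its cells had a read after thinning.

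**Figure D2:**
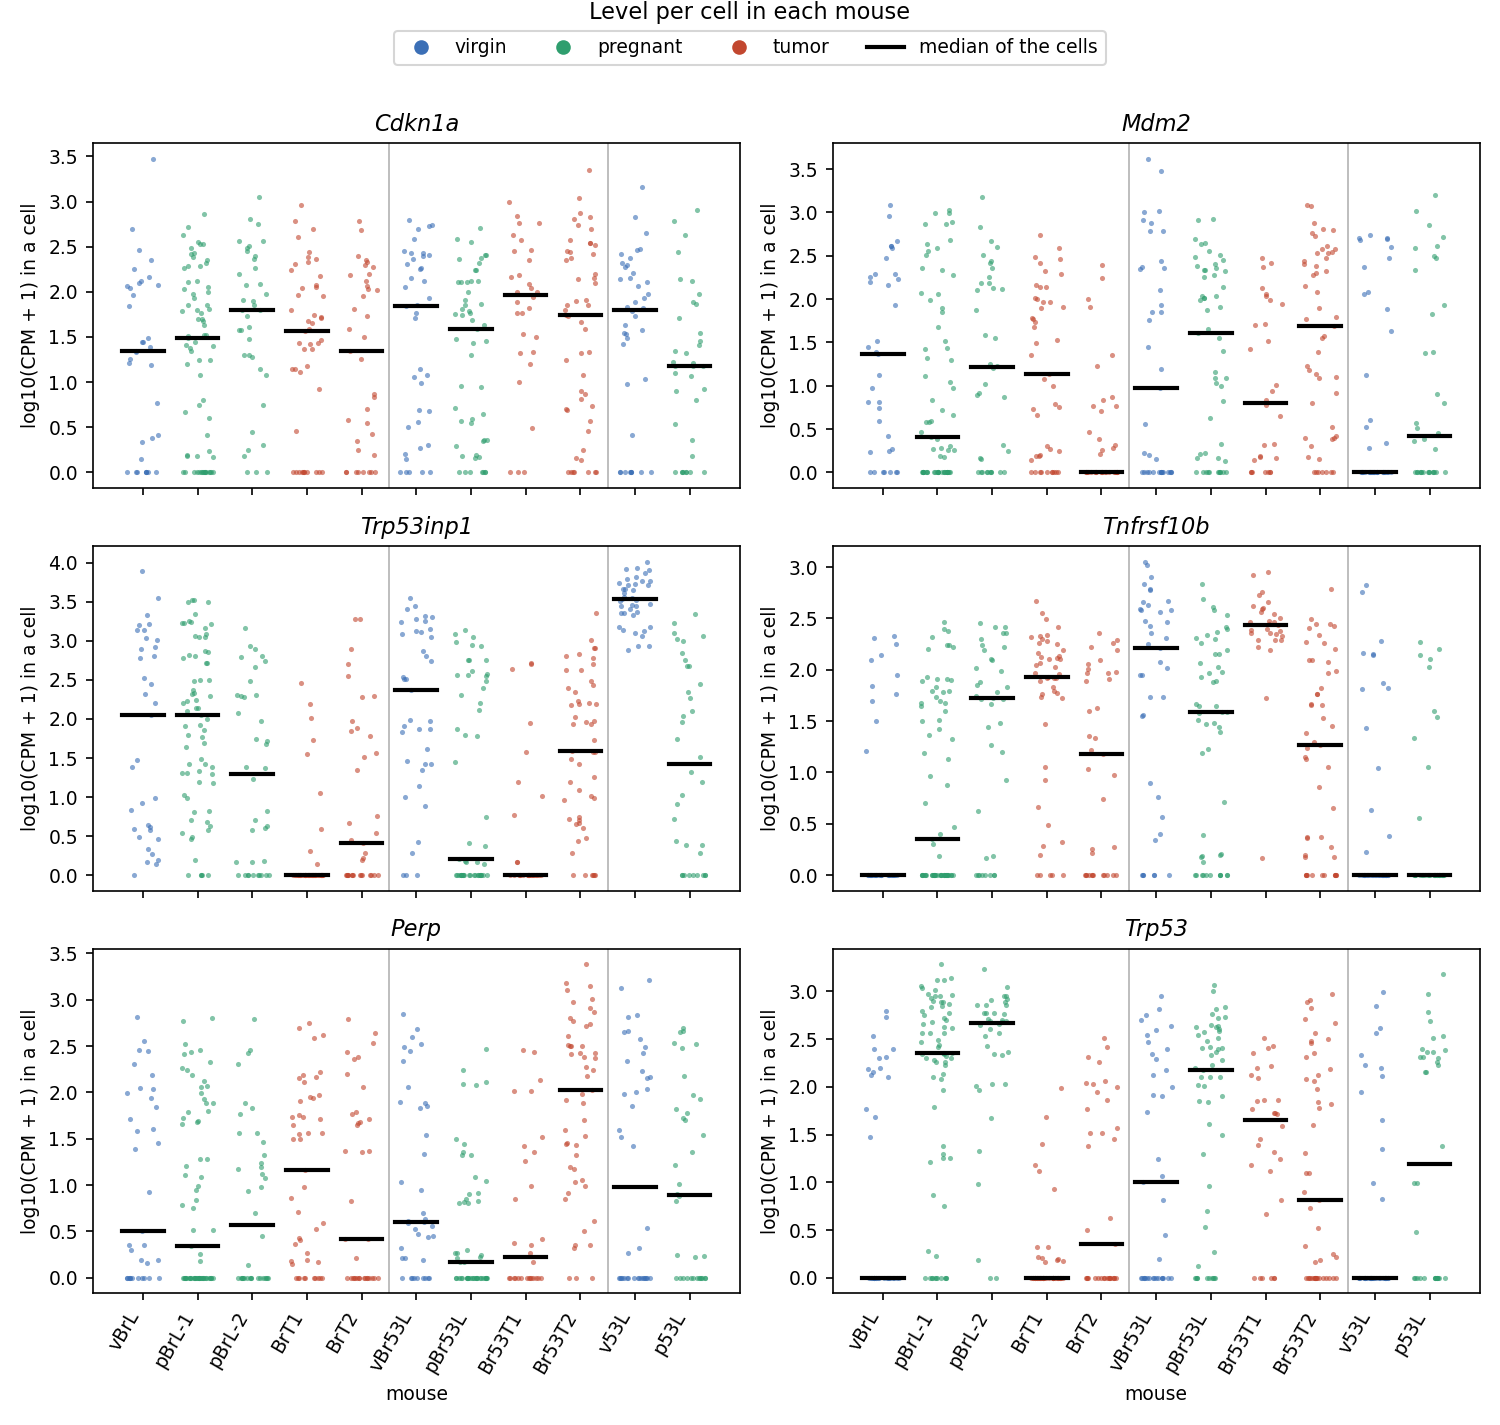
Level of *Cdkn1a*, *Mdm2*, *Trp53inp1*, *Tnfrsf10b*, *Perp* and *Trp53* in each cell, as log10(CPM + 1), by mouse. Points are cells coloured by state, black bars are medians, and grey lines separate *Trp53* wild type, Br53 and 53 mice. All 40 v53L cells hold *Trp53inp1*, whereas most panels show many cells at 0 beside cells above 100 CPM.

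*Trp53inp1* encodes a nuclear stress protein that promotes phosphorylation of p53 and takes part in autophagy (chr4:11156431-11174379, plus strand). The virgin mice vBrL, vBr53L and v53L held 747, 768 and 3829.7 CPM. Pregnant luminal mice held 477 and 205 in the pBrL pair, 210.0 in pBr53L and 323 in p53L. The tumors of Br mice held 13.7 and 182 CPM, those of Br53 mice 56.9 and 230.3 CPM. Every virgin mouse lay above every pregnant mouse, and v53L lay above the next mouse by 2.32 on the log2(CPM + 1) scale. In v53L all 40 cells had a read after thinning (exact 95% interval 91.2% to 100%) and the median cell held 3413 CPM, against medians of 0 to 231 CPM in the other mice. In BrT1, 12.8% of the cells had a read (interval 4.83% to 25.7%). Over the mice, v53L also had the most *Prlr* (3713 CPM), *Esr1* (469 CPM) and *Pgr* (133 CPM), receptors for prolactin, estrogen and progesterone, and vBrL followed with 1245, 184 and 25.2 CPM among the luminal mice. It further had the fewest genes read per cell (median 3672.5) and the least proliferation signal, 47.7 CPM summed over 22 genes against 486 CPM or more in the tumors. The part of these in the *Trp53inp1* level was not tested. Within mice, and again by a split chosen after values had been seen, cells with at least 10 CPM of the 3 receptors together had a higher median of *Trp53inp1* than the other cells in 6 of 11 mice and a lower one in 3. In v53L itself the medians were 3472 CPM over 35 cells with the receptors and 2779 CPM over 5 without. In vBrL they ran the other way, 59.5 CPM over 24 cells with the receptors and 160 CPM over 11 without.

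*Perp* encodes a membrane protein of desmosomes that p53 uses in apoptosis and that its relative p63 uses in stratified epithelia (chr10:18845020-18857073, plus strand). It stood at 72.4 CPM in vBrL, 64.5 and 52.4 in the pBrL mice, 82.7 in vBr53L, 21.8 in pBr53L, 175 in v53L and 94.1 in p53L. BrT1 and BrT2 held 71.8 and 75.3 CPM, Br53T1 27.2 and Br53T2 321. Br53T2 lay above all other mice and 84.3% of its cells had a read (interval 71.4% to 92.98%), against 30.2% to 53.2% in the others. Br53T2 was also the mouse with the most basal marker signal, with 1754 CPM of *Krt17* and 643 CPM of *Krt14*, and with 133 CPM of *Trp63*, the gene of p63. In its 45 cells with at least 10 CPM of *Krt5*, *Krt14* and *Krt17* together the median of *Perp* was 172 CPM, and in the other 6 cells 4.15 CPM, a split chosen after values had been seen. Over all mice with at least 5 cells of each kind, the keratin cells held the higher median in 6 of 9. The part of basal cells in the level was not tested.

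*Tnfrsf10b* encodes the death receptor for TRAIL, which starts apoptosis from the cell surface (chr14:69767472-69784411, plus strand). It stood at 32.4 CPM in vBrL, 37.7 and 82.6 in the pBrL mice, 112 in BrT1 and 51.4 in BrT2. In mutant mice it stood at 225 in vBr53L, 94.6 in pBr53L, 328 in Br53T1, 73.04 in Br53T2, 45.3 in v53L and 20.1 in p53L. The 2 highest levels were in Br53 mice, but the lowest was in a mutant mouse too. Br53T1 was even across its cells: 96.7% had a read (interval 82.8% to 99.9%), with a median of 275 CPM and 10.9% of the reads from the cell with the most. In the 53 mice the receptor was read in 25% and 22.2% of the cells, the lowest shares of the 11 mice.

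*Bax* and *Pmaip1* act at the mitochondrion, *Bax* as a pore-forming protein and *Pmaip1* (Noxa) as a small protein that blocks the opponents of *Bax*. *Bax* was low, between 5.81 and 18.4 CPM in luminal mice and between 4.95 and 21.7 CPM in tumors, highest in Br53T1. Only 3 of 477 cells reached 100 CPM of it. *Pmaip1* lay between 0.216 and 26.1 CPM in luminal mice. BrT1 and BrT2 held 16.4 and 0.321 CPM, Br53T1 0.0364 CPM, from 2 reads, and Br53T2 112 CPM. The pBrL mice, which share a group, differed by 38.7-fold in *Pmaip1* and by 1.42-fold in *Bax*. In Br53T2, 39.2% of the cells had a *Pmaip1* read, 46.8% of the reads came from 1 cell, and the rest stood at 60.9 CPM.

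*Sesn2* encodes sestrin 2, which restrains mTORC1 signalling under stress, and *Zmat3* a zinc finger protein that binds RNA. *Sesn2* lay between 0.765 and 39.5 CPM in luminal mice and between 0 and 21.3 CPM in tumors. In BrT2 it had no read, and 0 of 37 cells allows a share of up to 8.11% by the limit of 3 counts, or 9.49% by the exact interval, counting error only. Removing the cell with the most reads took pBrL-2 from 39.5 to 8.59 CPM. *Zmat3* stood at 75.99 CPM in vBrL, 32.5 in v53L and 10.0 in p53L, and between 1.5 and 3.43 CPM in the other 4 luminal mice, with 9.67 to 20.6 CPM in tumors. In vBrL 51.5% of the reads came from 1 cell, and the others stood at 37.3 CPM. The 3 cells with the most reads gave 96.8% of the *Zmat3* reads in vBrL and 98.1% in v53L. After thinning, 14.3% and 12.5% of the cells of these mice had a read.

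**Figure D3:**
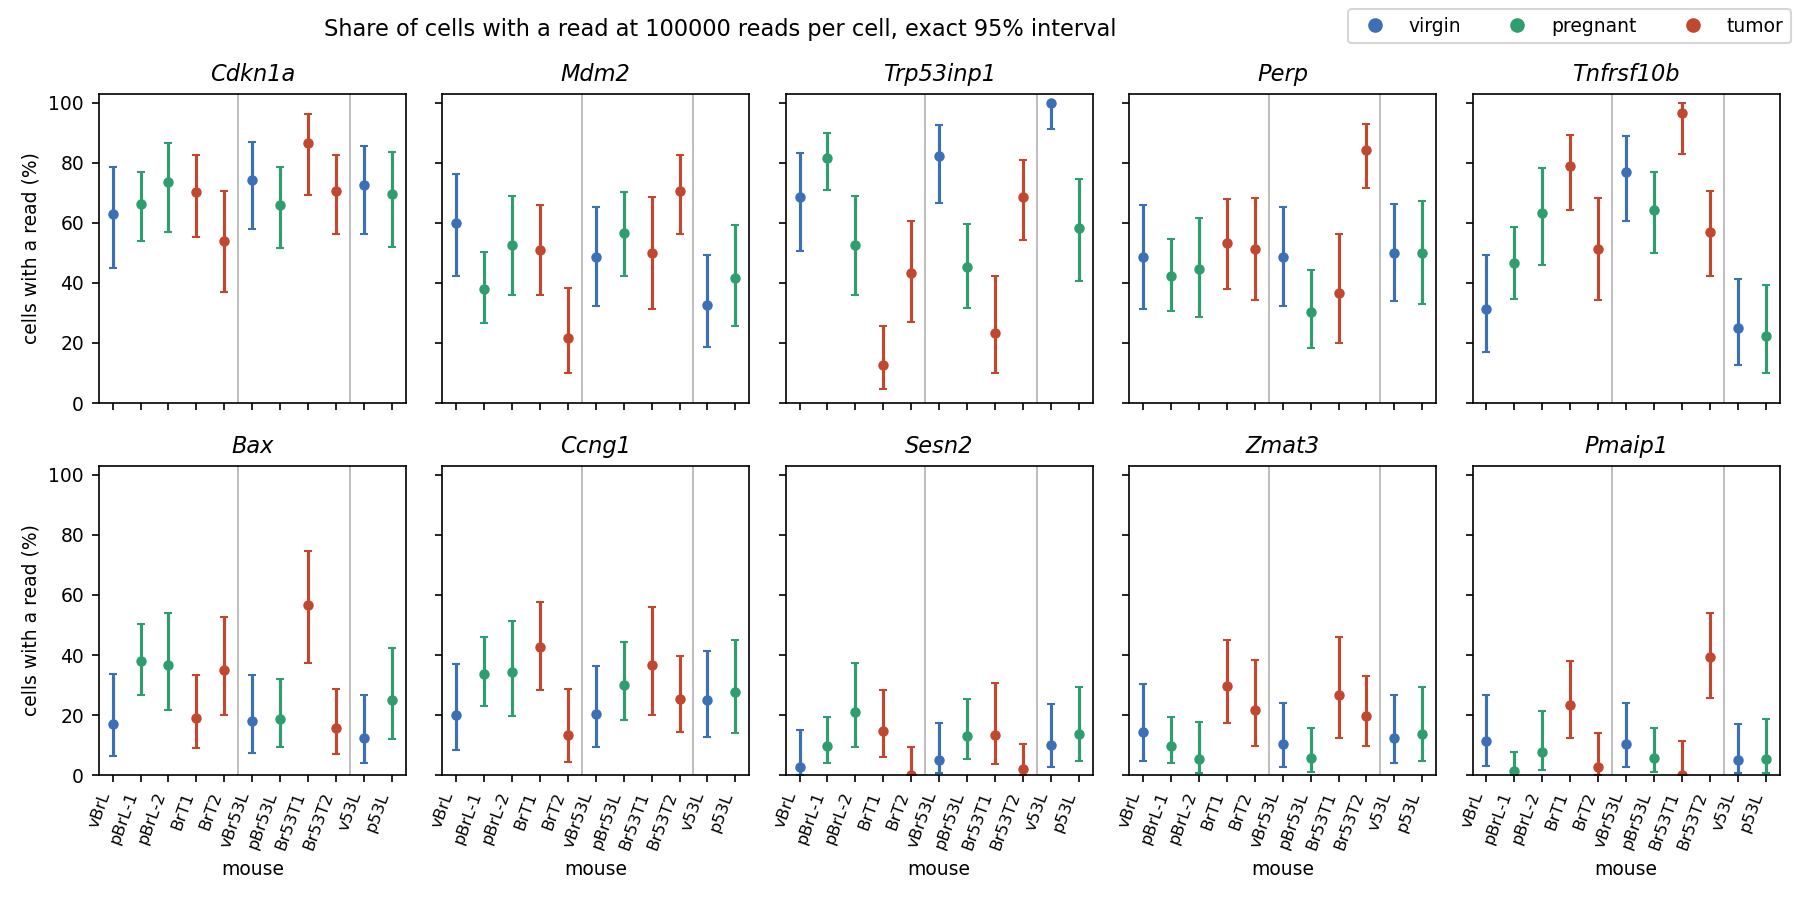
Share of cells (%) with at least 1 read of each of the 10 genes after thinning each cell to 100000 reads, by mouse, coloured by state, with exact 95% binomial intervals. *Trp53inp1* reaches 100% in v53L and 12.8% in BrT1, *Cdkn1a* stays between 54.1% and 86.7%, and *Pmaip1*, *Sesn2* and *Zmat3* stay at or below 39.2%.

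The first question was whether p53 target genes were lower where *Trp53* was floxed. In 9 *Brca1*-deficient mice, 4 of them *Trp53* mutant, none of the 10 genes passed the test (edgeR quasi-likelihood test with state as a covariate, adjusted over 15051 genes), and neither did any other gene, so 0% of the genes were called. An unadjusted p under 0.05 was reached by 1 of the 10 genes and by 4.18% of all genes, and DESeq2 called 929 genes (4.79%), none of them among the 10. *Tnfrsf10b* had the lowest p, with 180 ± 119 CPM (SD, n = 4) in mutant and 63.2 ± 33.4 CPM (n = 5) in wild type mice, a log2 difference of 1.47 ± 0.57 (SE) and an adjusted p of 1 (unadjusted 0.0284). *Ccng1* differed by -1.17 ± 0.56, with 13.7 ± 3.49 against 36.3 ± 18.7 CPM, and *Mdm2* by 0.96 ± 0.53, with 168 ± 106 against 97.6 ± 52.3 CPM. The log2 difference was 0.58 ± 0.33 for *Cdkn1a*, 2.04 ± 1.69 for *Pmaip1* and -1.02 ± 0.96 for *Zmat3*, and those of *Perp*, *Bax*, *Sesn2* and *Trp53inp1* lay between -0.23 and 0.28. No gene of the 10 was free of overlap between the genotypes, as against 1.14% of all genes. Their median difference was 0.24, beside 0.02 over all genes, with 7 above 0 (51% of all genes lay above 0).

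State by state, 3 of the 10 genes stood higher in Br53 than in Br mice among virgin mice, pregnant mice and tumors alike, and 1 stood lower in all, beside 11.6% and 12% of all genes. *Tnfrsf10b* was higher by 2.76 in virgin mice, 0.75 in pregnant mice and 1.02 in tumors on the log2(CPM + 1) scale. *Mdm2* was higher by 0.95, 0.09 and 1.31, and *Pmaip1* by 1.13, 1.87 and 1.18. *Ccng1* was lower, with differences of -2.59, -1.20 and -0.36. Its tumor value depends on 1 cell, which gave 79.9% of the BrT2 reads. Without that cell BrT2 stood at 2.95 CPM, below Br53T1 and Br53T2 (16.1 and 12.3 CPM), while BrT1 stood above them (23.7 CPM). In virgin mice 1 cell gave 65.9% of the *Ccng1* reads in vBrL and 61.4% in vBr53L, which stood at 21.98 and 3.79 CPM without it. The tumor value of *Tnfrsf10b* rests on Br53T1, since Br53T2 lay between the Br tumors. Those of *Mdm2* and *Pmaip1* rest on Br53T2, since Br53T1 lay below BrT1 for *Mdm2* and below every other mouse for *Pmaip1*. Among pregnant mice, pBr53L held 11.3 CPM of *Pmaip1*, against 0.216 in pBrL-1 and 8.36 in pBrL-2. It held 94.6 CPM of *Tnfrsf10b*, against 37.7 and 82.6, so the size of both values rests mostly on pBrL-1. In virgin mice each difference rests on 1 mouse against 1, so it has no test. An interaction term asked whether the *Trp53* difference itself differed between tumors and luminal cells. It was significant for 0 of the 10 genes and for 0.00664% of 15051 genes, with 0 of the 10 against 3.9% at an unadjusted p under 0.05, and 599 genes (3.09%) but none of the 10 in DESeq2. The lowest p among the 10 was that of *Perp* (1.78 ± 1.35, edgeR adjusted p = 1).

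In the 7 luminal mice, where the 53 mice joined the mutant arm, the result was again 0 of 10 genes and 0% of 13709 genes, with 0 of the 10 and 3.71% of all genes at an unadjusted p under 0.05. DESeq2 called 409 genes (2.22%) and none of the 10. *Ccng1* had the largest difference relative to its error, -0.85 ± 0.61, with 24.7 ± 15.5 CPM (n = 4) against 47.9 ± 13.2 CPM (n = 3). *Tnfrsf10b* differed by 0.80 ± 0.79 and *Cdkn1a* by 0.16 ± 0.40. The standard errors of *Sesn2*, *Pmaip1* and *Zmat3* were 1.46, 1.34 and 1.24, so a several-fold difference in these genes was not detectable with these mice. None of the 10 was free of overlap, beside 5.72% of all genes. This comparison shares 5 mice with the one above, so the pair are not independent. The 53 mice have wild type *Brca1*, while every mouse of the wild type *Trp53* arm is *Brca1* fl/fl. *Trp53* genotype is thus partly mixed with *Brca1* genotype here, and the fit did not separate them.

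**Figure D4:**
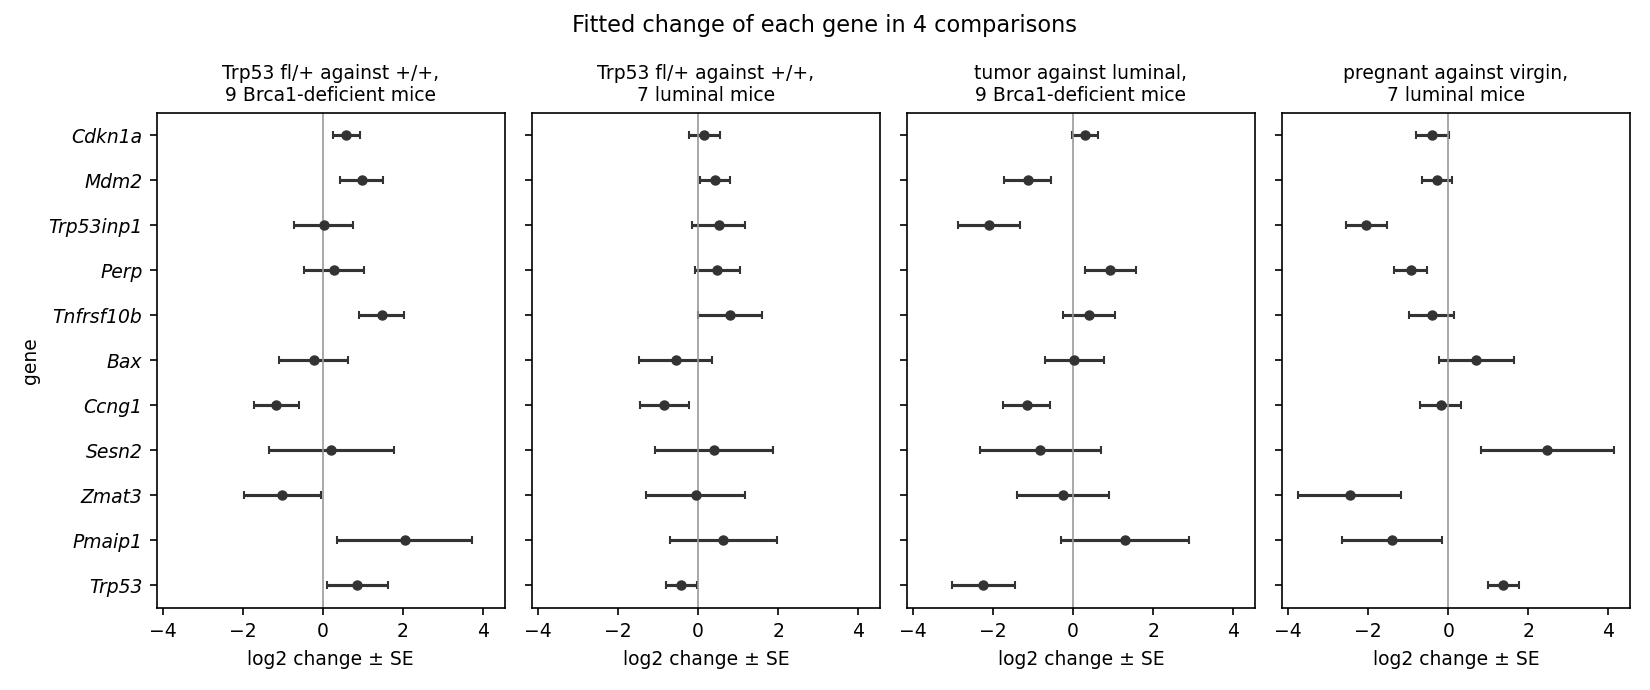
Log2 change (points) with its standard error (bars) from edgeR for the 10 genes and *Trp53* in 4 comparisons. No gene passed the test in any panel, and *Trp53inp1* lies about 2 below 0 both in tumors and in pregnancy, beside *Trp53*, which lies below 0 in tumors and above 0 in pregnancy.

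Tumors were then compared with the 5 *Brca1*-deficient luminal mice. None of the 10 genes passed the edgeR test, while 0.609% of 12978 genes did (79 genes, 51 higher and 28 lower), and 1 of the 10 against 13.8% of all genes had an unadjusted p under 0.05. DESeq2 called 1368 genes (8.14%) and none of the 9 that it gave a p. *Trp53inp1* held 121 ± 102 CPM in tumors (SD, n = 4) and 482 ± 275 CPM in luminal mice (n = 5), a log2 difference of -2.10 ± 0.77 with an edgeR adjusted p of 0.249. Br53T2 lay within the luminal range and the other 3 tumors below it. *Ccng1* and *Mdm2* differed by -1.16 ± 0.58 and -1.14 ± 0.59, and *Perp* by 0.93 ± 0.63, a value that rests on Br53T2, without which it was -0.11. *Cdkn1a* differed by 0.30 ± 0.33, with 136 ± 53.3 against 99.5 ± 25.7 CPM. None of the 10 was free of overlap, beside 7.52% of all genes. *Trp53* itself differed by -2.25 ± 0.79 (adjusted p = 0.231), with 65.6 ± 56.3 against 286 ± 175 CPM, and Br53T2 differed by -1.87 from pBrL-2, the luminal mouse of its batch, on the log2(CPM + 1) scale. In that batch *Trp53inp1* differed by 0.16, *Cdkn1a* by 0.62, *Mdm2* by 0.64 and *Perp* by 2.59, tumor over pregnant luminal. Immediate-early and heat shock genes, which rise when tissue is dissociated, summed to between 6187 and 8655 CPM over 10 genes in tumors and between 2129 and 5994 CPM in luminal mice. In tumors 4 of the 10 had an unadjusted p under 0.05 (13.8% of all genes), DESeq2 called 1, *Dusp1*, higher, and their part in these differences was not tested.

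Pregnant and virgin luminal mice were compared last. *Trp53inp1* was lower in all 4 pregnant mice (304 ± 128 CPM, SD) than in all 3 virgin mice (1782 ± 1774 CPM), a log2 difference of -2.05 ± 0.51 with genotype as a covariate. It did not pass the edgeR test (adjusted p = 0.298, unadjusted 0.0038), whereas 2 of 13709 genes (0.0146%) did, and 1 of the 10 against 8.99% of all genes had an unadjusted p under 0.05. It did pass with DESeq2 (adjusted p = 0.00849), which called 6.98% of all genes, and in edgeR without the filter on low counts (adjusted p = 3.66e-05). The other alternatives gave adjusted p-values up to 0.528. It was the only 1 of the 10 that was lower without overlap, beside 5.24% of all genes, and 0 of the 10 were higher without overlap, beside 6.11%. Within batches, pBr53L differed from vBr53L by -1.87 and p53L from v53L by -3.56 on the log2(CPM + 1) scale, and without v53L the fitted difference was -1.43. *Prlr* stood at 525 to 3713 CPM in the virgin and 162 to 221 CPM in the pregnant mice, and its part in the difference was not tested. Other genes, singled out after their values were seen, also separated these mice. The heat shock genes *Hspa1a* (5.12 ± 1.66, edgeR adjusted p = 0.462) and *Hspa1b* (2.37 ± 0.75, adjusted p = 0.443) were higher in all pregnant mice and were called by DESeq2, although the sum of the 10 immediate-early and heat shock genes overlapped between the stages. *Dcn* stood at 176 to 711 CPM in virgin and 0.026 to 25.4 CPM in pregnant mice. Their part was not tested either. The largest fitted differences were those of the sparse genes *Sesn2* (2.48 ± 1.66, edgeR adjusted p = 0.687) and *Zmat3* (-2.47 ± 1.29, adjusted p = 0.617), both with overlap. *Perp*, with the second lowest p of the 10, differed by -0.93 ± 0.41 (adjusted p = 0.571) and was lower in pregnancy in each of the 3 genotypes, as were *Trp53inp1* and *Pmaip1*, 3 of the 10 beside 13.8% of all genes. No gene of the 10 was higher in all, beside 15.8%. The other 7 ran in opposite directions in a pair of genotypes, beside 59.4% of all genes. Median log2 differences were -0.41 for the 10 genes and 0.14 over all genes, and 2 of the 10 against 55.9% of all genes lay above 0. *Trp53* stood the other way, at 337 ± 155 CPM in pregnant and 117 ± 41.1 CPM in virgin mice, a difference of 1.38 ± 0.39 (edgeR adjusted p = 0.380, DESeq2 adjusted p = 0.0408) without overlap, and its alternatives gave adjusted p-values from 0.0309 to 0.953.

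A list of 31 other p53 targets was read beside the 10. None of them passed the edgeR test in any comparison. At an unadjusted p under 0.05 there were 0 of 31 for *Trp53* genotype in *Brca1*-deficient mice (4.18% of all genes) and 0 in luminal mice (3.71%). There were 2 in tumors (13.8% of all genes), 4 in pregnancy (8.99%) and 0 for the interaction (3.9%). DESeq2 called *Cd82* in tumors, lower, and 4 genes in pregnancy (*Btg2*, *Gtse1* and *Ppm1d* higher and *Gadd45a* lower), beside 8.14% of all genes in tumors and 6.98% in pregnancy. It called none of the 31 for genotype in *Brca1*-deficient mice, genotype in luminal mice or the interaction, beside 4.79%, 2.22% and 3.09% of all genes. In pregnancy, *Btg2*, which slows the cell cycle, differed by 1.17 ± 0.26 (adjusted p = 0.238) and was higher in all pregnant mice. *Gadd45a*, a stress gene of growth arrest, differed by -1.39 ± 0.46 (adjusted p = 0.470) and was lower in all of them, and *Plk2*, a kinase of the centrosome, differed by 1.23 ± 0.48 (adjusted p = 0.517). In tumors, *Cd82* (-1.46 ± 0.42, adjusted p = 0.155), *Rps27l* (-0.82 ± 0.31, adjusted p = 0.260) and *Polk* (1.58 ± 0.73, adjusted p = 0.370) had the lowest p-values. For genotype they were *Rrm2b* (1.03 ± 0.82), *Cd82* (0.49 ± 0.43) and *Xpc* (1.04 ± 0.94) in *Brca1*-deficient mice and *Gadd45a* (0.98 ± 0.48), *Cd82* (0.66 ± 0.39) and *Btg2* (-0.34 ± 0.25) in luminal mice, and for the interaction *Ddb2* (6.70 ± 3.63), *Plk3* (2.97 ± 1.82) and *Phlda3* (-3.98 ± 2.66). The median over the 31 genes was 0.08, -0.21, 0.06, 0.52 and -0.32 in the order genotype in *Brca1*-deficient mice, genotype in luminal mice, tumor, pregnancy and interaction.

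Among 17 regulators of p53, 11 relatives of *Bax* in the Bcl-2 family and 22 proliferation genes, none passed the edgeR test in any comparison, and at most 4 regulators, 1 Bcl-2 relative and 7 proliferation genes had an unadjusted p under 0.05 in 1 comparison, the regulators in tumors (13.8% of all genes) and the proliferation genes in pregnancy (8.99%). DESeq2 called the regulators *Cdkn2a* and *Trp63* in tumors, *Trp53* in pregnancy and *Trp63* in the interaction, the relatives *Bcl2* in tumors and *Bik* and *Bok* in pregnancy, and 4 proliferation genes in pregnancy (*Aurka*, *Bub1*, *Bub1b* and *Ccnb1*), all 4 higher. The share of all genes that DESeq2 called was 8.14% in tumors, 6.98% in pregnancy and 3.09% in the interaction. Arf, which holds Mdm2 away from p53, is 1 of the products of *Cdkn2a*, and counts over the whole gene do not separate these products. *Cdkn2a* was singled out after its values were seen. It stood at 7.89 and 4.61 CPM in the Br tumors, 3.12 and 4.08 CPM in the Br53 tumors, and at most 0.029 CPM in any luminal mouse, so the groups did not overlap (edgeR log2 difference 9.36 ± 1.84 against libraries at or near 0, adjusted p = 0.0517). The proliferation genes had a median log2 difference of 1.85 in pregnancy, with 21 of 22 above 0 and 7 at an unadjusted p under 0.05, beside 0.14, 55.9% and 8.99% over all genes. For *Trp53* genotype their median was -0.97 in *Brca1*-deficient mice, with 19 of 22 below 0 (49% of all genes) and 0 at an unadjusted p under 0.05, and -0.89 in luminal mice, with 22 of 22 below 0 (51% of all genes) and 3 at an unadjusted p under 0.05 (3.71% of all genes). Single mice stood apart in their sum, BrT1 with 4350 CPM and v53L with 47.7 CPM, beside 486 to 2253 CPM in the others. The part of proliferating cells in the pregnancy and genotype differences was not tested.

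The order of the mice was unlike from gene to gene. Over the 11 mice, the 45 pairs of the 10 genes had a median Pearson r of 0.03 on log2(CPM + 1), 26 of them above 0 and 2 above 0.6. The highest were *Mdm2* with *Pmaip1* (r = 0.648) and *Cdkn1a* with *Tnfrsf10b* (r = 0.625), and the lowest was *Bax* with *Pmaip1* (r = -0.823). With *Trp53*, r was 0.550 for *Trp53inp1*, 0.463 for *Mdm2*, -0.00896 for *Cdkn1a* and -0.532 for *Zmat3*. These are descriptions over mice that share batches and states. The gap between the 2 pBrL mice is the only measure of spread inside a group, and it holds batch too, since they came from SC5 and SC6. For *Cdkn1a*, *Tnfrsf10b*, *Bax*, *Sesn2* and *Pmaip1*, no 2 neighbours in the order of the 11 mice lay further apart than that pair. Steps between neighbours are small parts of the whole range, so this does not say that the mice were alike. For *Tnfrsf10b* the range was 3.96 on the log2 scale beside a pair gap of 1.11, and for *Pmaip1* 6.77 beside 2.94. For *Trp53inp1*, 3 of the 10 steps in the order were wider than the pair, the widest from v53L to vBr53L (2.32 on the log2 scale), and for *Perp* and *Ccng1* 4 steps each were. Of *Mdm2* and *Zmat3*, 6 steps each were wider, beside close pBrL pairs (1.10-fold and 1.28-fold).

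Genes whose levels ran most like each of the 10 were taken from 8886 genes whose mean level reached 10 CPM, by Pearson r over the 11 mice. For *Cdkn1a* they were *Ptpn1* (0.953), *BC031181* (0.915) and *Zfp263* (0.898), and for *Mdm2* *Btf3* (0.960), *Atpif1* (0.960) and *Ndufs6* (0.939). *Trp53inp1* ran with *Sash1* (0.941), *Tmem56* (0.926) and *Dkkl1* (0.926), *Perp* with *Dhx32* (0.912), *Ubl5* (0.889) and *Baiap2l1* (0.861), and *Tnfrsf10b* with *Ankrd11* (0.905), *Ndufaf5* (0.898) and *Vps18* (0.888). *Bax* ran with *Srp9*, *Zfp946* and *Aup1* (0.908 to 0.872), *Ccng1* with *Derl2*, *Lyrm9* and *Tbck* (0.918 to 0.851), and *Sesn2* with *Iars2*, *Agpat1* and *Osbpl1a* (0.878 to 0.856). *Zmat3* ran with *Crim1*, *Cfap36* and *Mcts1* (0.888 to 0.860) and *Pmaip1* with *Pds5a*, *Gpr137b* and *Txn1* (0.913 to 0.888). None of the 10 genes had another of the 10 among its 3 nearest, which says little, since 3 places among 8886 genes would seldom hold another of them. The values of r were picked as the highest of 8886 over only 11 mice. Such picking alone makes them high, and they were not tested.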

How the data were processed

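The authors deposited a table of raw read counts, 1 row per gene and 1 column per cell. No molecular identifiers were used, so PCR copies count as reads. Depth was 40.3 to 116 M reads per mouse. The submitters' processing notes name Trim Galore 0.4.1, STAR 2.5.3a, Subread 1.5.3 and mm10, and the methods give a check of capture sites for doublets under the microscope. The gene annotation and use of strand are not given in the sources used here. Positions are from GENCODE on GRCm38, promoters from RefSeq on GRCm38.p6.

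Here counts were summed per mouse and tested with edgeR 4.0.16 in R 4.3.3 (filterByExpr, TMM, quasi-likelihood test), Benjamini-Hochberg over all genes tested, called at an adjusted p under 0.05. Alternatives were RLE factors, library size alone, no low-count filter, DESeq2 1.42.0, cells with at least 2000 genes, limma 3.58.1 on each mouse's mean CPM per cell, other covariates or arms, batch as a block, and leaving out each mouse. Log2 levels outside the fits used a pseudocount of 1 CPM. Cells were thinned to 100000 reads for shares, which lost 0 cells. Exact binomial intervals (95%) and the limit of 3 counts for a share of 0 cover counting error only. Of the cells, 1 had fewer than 2000 genes, and no 2 cells had identical values. The edgeR step was tested on simulated data.

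All 10 genes and *Trp53* were named. Of the other p53 targets, regulators, Bcl-2 family and proliferation genes, those called in a comparison were to be named, and the 3 of the other p53 targets with the lowest unadjusted p. For each of the 10 genes the 3 most similar genes were named, leaving out predicted gene models. The 10 genes and the lists were chosen with earlier results of these data known. The 1 gene past the threshold for the interaction is not named.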

Additional observations from a re-analysis of the deposited data

Results flagged for a closer look

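Of 22 sets of mice examined for 1 mouse far from the rest (the 7 luminal mice and the 4 tumors, for each gene and *Trp53*), 6 held 1 on the CPM scale, where chance gives about 1 in 20 sets for normally distributed values. On the log2(CPM + 1) scale, a choice made after seeing the data, 1 of the 22 did, *Mdm2* in vBr53L (0.654), and *Trp53inp1* in v53L gave 0.55. On the CPM scale the gap to the nearest other mouse, as a share of the whole range, was 0.845 for *Trp53inp1* in v53L, 0.757 for *Mdm2* and 0.637 for *Tnfrsf10b* in vBr53L, and 0.584 for *Zmat3* in vBrL, against a critical value of 0.568 for 7 mice. In the tumors it was 0.854 for *Pmaip1* and 0.836 for *Perp*, both in Br53T2, against 0.829 for 4 mice. *Mdm2* in vBr53L and *Zmat3* in vBrL stood at 294 and 75.99 CPM and, without the cell with the most reads, at 215 and 37.3 CPM. The 3 cells with the most reads gave 60.7% and 96.8% of these reads.

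The change with pregnancy ran in opposite directions in a pair of genotypes for 7 of the 10 genes, beside 59.4% of all genes. None of these differences was tested, since all but the Br arm hold 1 mouse against 1. On the log2(CPM + 1) scale, *Cdkn1a* was higher by 0.43 in Br and lower in 53 mice (-1.25), a difference of 1.69. *Mdm2* gave 0.49 in 53 and -1.17 in Br53 mice (difference 1.66), *Tnfrsf10b* 0.77 in Br and -1.24 in Br53 mice (2.01), and *Ccng1* 0.78 in Br53 and -0.73 in 53 mice (1.51). *Bax* gave 0.88 in Br and -0.03 in Br53 mice (0.911). The sparse genes gave the widest differences, 4.98 for *Sesn2* (3.78 in Br, -1.21 in 53 mice) and 5.21 for *Zmat3* (0.82 in Br53, -4.38 in Br mice).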

How the results depend on the processing

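Of the 10 groups, 9 held 1 mouse, and few cells gave the reads of the sparse genes. None of the 10 genes was called under any alternative, except that in pregnancy 1, *Trp53inp1*, was called with no low-count filter and 1, again *Trp53inp1*, with DESeq2. Replicate numbers mark no common mouse or batch. For pregnancy, an alternative chosen after seeing the data took batch as a replicate block on the 4 mice of the 2 batches that hold both stages, with 1 residual degree of freedom. It called 0 of the 10 genes and 8 of 12354 genes, gave -2.64 ± 0.55 for *Trp53inp1* (adjusted p = 0.186) and turned *Ccng1* to 0.12. The other comparisons hold at most 1 pair of opposite arms in a batch and were not fitted with a block. The log2 changes of the 10 genes and *Trp53* in the 5 comparisons make 55 values, and 29 of them kept their sign under every alternative. Outside leaving out a mouse, 11 alternative values changed sign, *Ccng1* above among them. For *Trp53* genotype in *Brca1*-deficient mice, mean CPM with limma gave -0.16 for *Perp*, and no covariate gave -0.029 for *Trp53inp1*, -0.54 for *Sesn2* and -0.48 for *Trp53*. In luminal mice limma gave -0.35 for *Cdkn1a* and no covariate gave -0.57 for *Sesn2*. In tumors limma gave 1.18 for *Zmat3* and -0.10 for *Pmaip1*, and *Trp53* genotype as a covariate gave 0.63 for *Zmat3*. In the interaction limma gave -0.56 for *Pmaip1*. The cause was not tested.

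Leaving out 1 mouse changed the sign of 25 values. In genotype among *Brca1*-deficient mice, the range was -0.87 to 0.20 for *Bax*, -0.97 to 0.85 for *Perp*, -0.45 to 2.52 for *Sesn2* and -0.55 to 0.81 for *Trp53inp1*. In luminal mice it was -0.36 to 0.40 for *Cdkn1a*, -0.21 to 0.93 for *Perp*, -0.35 to 2.09 for *Pmaip1*, -0.92 to 1.66 for *Sesn2*, -0.20 to 1.12 for *Trp53inp1* and -0.81 to 1.49 for *Zmat3*. In tumors it was -0.46 to 0.33 for *Bax*, -0.11 to 1.26 for *Perp*, -1.26 to 1.84 for *Pmaip1*, -0.43 to 1.00 for *Tnfrsf10b* and -0.58 to 2.45 for *Zmat3*. In pregnancy it was -0.63 to 0.10 for *Ccng1*, -0.67 to 0.073 for *Mdm2* and -1.16 to 0.0076 for *Tnfrsf10b*. In the interaction it was -0.59 to 1.90 for *Mdm2*, -0.89 to 2.66 for *Perp*, -9.15 to 5.83 for *Pmaip1*, -3.57 to 11.58 for *Sesn2*, -1.91 to 0.50 for *Tnfrsf10b*, -0.66 to 3.73 for *Trp53inp1* and -1.16 to 4.86 for *Zmat3*.

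Counts over all genes moved far more than those of the 10. In genotype among *Brca1*-deficient mice they were 0, 22 with no filter and 929 with DESeq2, and in luminal mice 0, 85 and 409. In tumors they were 79, 129 with no filter, 1368 with DESeq2, 352 with limma, 213 with all 7 luminal mice, 124 by library size alone (94 higher, 30 lower) and 54 with *Trp53* genotype as a covariate, and 11 (without pBrL-1) to 94 with a mouse left out, leaving out BrT1 giving 50, BrT2 44, pBrL-2 29 and pBr53L 19. In pregnancy they were 2, 366 with no filter, 1286 with DESeq2, 28 with limma and 17 with no covariate, and with a mouse left out 0 (without vBrL or pBrL-1), 5 (pBrL-2), 12 (pBr53L), 18 (vBr53L), 38 (v53L) and 41 (p53L). In the interaction they were 1, 261 and 599, and with a mouse left out 0 (pBrL-2 or pBr53L) to 219 (BrT2), with 35 without BrT1, 8 without Br53T1, 5 without vBrL and 2 without vBr53L. Library size alone shifted the median of all genes to -0.15 in luminal genotype, 0.20 in tumors and 0.22 in the interaction.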
